A study of Mus musculus with 30 samples.

Results

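The genes described here encode the ionotropic glutamate receptors that carry fast excitatory transmission in the cortex, with the small proteins that travel with them. They were chosen by symbol: the NMDA receptor subunits Grin1, Grin2a and Grin2b, the AMPA receptor subunits Gria1, Gria2, Gria3 and Gria4, and Cacng2, Cacng3 and Cacng4, which encode TARPs (transmembrane AMPA receptor regulatory proteins). Every probe set whose array annotation gives one of these symbols alone was taken. That gave 19 probe sets for 8 of the 10 genes, out of 36899 probe sets on the arrays. Grin1 and Cacng3 were not analysed here. A probe set was tested if its signal was above the median of its array type on at least 3 arrays, and 14 of the 19, for 6 genes, passed.

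RNA came from primary visual cortex (V1) of mice reared in the standard way, at postnatal days 14, 28 and 60 (P14, P28 and P60). P14 and P28 were each represented by 3 litters and P60 by 4, with no treatment or genotype named, and the sources used here give neither strain nor sex. The RNA of each litter went onto 3 Affymetrix array types, called chips A, B and C here, which makes 30 arrays. A sample stands for a litter, so p-values measure the spread between litters, and how many animals were pooled was not given. In bulk tissue, fewer cells of a type and less RNA per cell cannot be told apart.

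AMPA receptors are assemblies of Gria subunits that carry the fast synaptic current, and TARPs bring them to the membrane, tether them at the synapse and slow their closing. NMDA receptors pair Grin1 with Grin2 subunits, pass calcium and act as coincidence detectors for plasticity. In young sensory cortex Grin2b predominates and Grin2a gains ground as vision matures, a change known to shorten the synaptic NMDA current. Gria2 is the subunit that makes AMPA receptors nearly impermeable to calcium.

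Values are MAS5 signals, an intensity on a linear scale that the authors scaled to a common level, and log2 changes are of the signal plus a small constant. Probe sets respond with different strength, so levels are compared between ages within a probe set and never between probe sets. On P14 litter 1 the ratio of 3' to 5' control signal, a measure of RNA and labelling quality, was high, with Gapdh at 9.57 to 12.2 and Actb at 12.2 to 12.8. The other 27 arrays had Gapdh ratios of 0.741 to 1.32 and Actb ratios of 1.04 to 1.5. That litter stands apart. The age means at P14 include it, and its values are pointed out for many genes but not for all. As a background level, the 95th percentile of 15 Bacillus control probe sets was 98.4 for chip A, 153 for B and 252 for C. Of 7 measured markers of cortical excitatory neurons, 5 were above it on all 10 arrays, Neurod6 on 8 and Camk2a on 7. Slc17a7, the vesicular glutamate transporter of these cells, had age means from 7427 to 9373 and the transcription factor gene Tbr1 from 4645 to 5071. Within both P14 means litter 1 stood apart: it read 4511 for Slc17a7, where the other P14 litters read 10846 and 12762. For Tbr1 it read 9346, where they read 2150 and 2850. None of 3 cerebellar granule cell markers was among the genes tested.

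P14 litter 1 split the probe sets of single genes, which bears on most P14 means. For Gria2, this litter read 18797 on probe set 92947_s_at, where the other 9 litters lay between 7231 and 9213, and 3615 on 92945_at, where they lay between 1103 and 2593. On the remaining tested Gria2 probe set, 92946_f_at, it was instead the lowest of all, at 727 against 845 to 1302. Cacng2 showed the same kind of split. It read 23721 on 168489_r_at against at most 11628 elsewhere, and 262 on 94182_at against at least 352 elsewhere. Relative to the mean of the other P14 litters, its signal ran from 0.356 times on Cacng2 94182_at to 3.00 times on Gria2 92945_at over the 14 tested probe sets. The Cacng4 probe set 113873_at (0.820 times) and the Grin2b probe set 139231_at (0.894 times) were among those least affected. What part this litter's RNA had in single values was not tested beyond leaving it out.

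**Figure D1:**
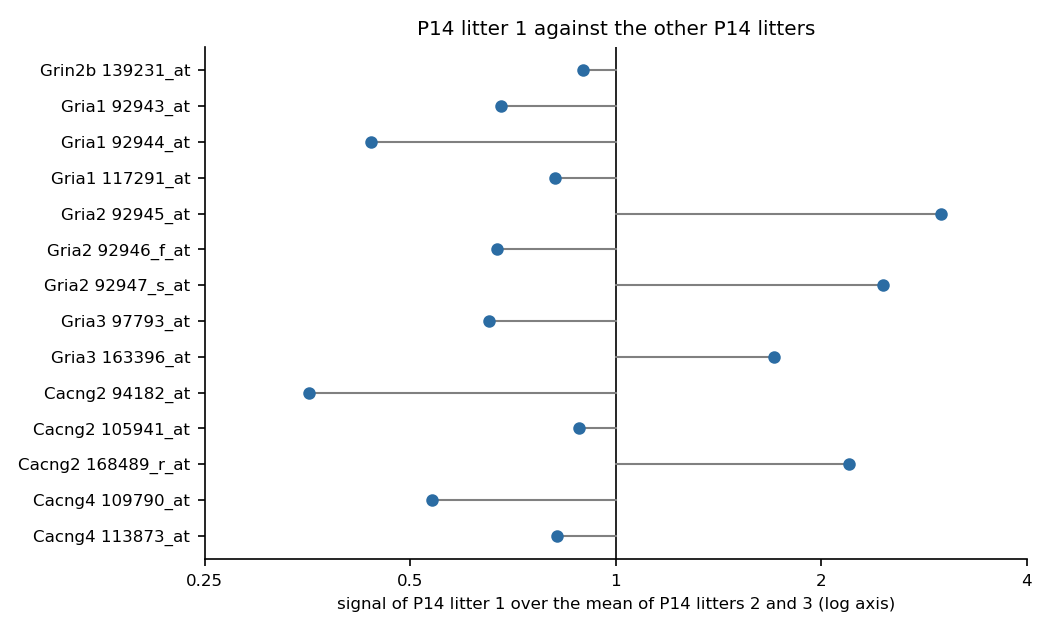
Signal of P14 litter 1 divided by the mean of P14 litters 2 and 3 on the 14 tested probe sets; the axis is logarithmic and the vertical line is 1. Gria2 92945_at (3.00), Gria2 92947_s_at (2.46), Cacng2 168489_r_at (2.20) and Gria3 163396_at (1.71) lie above 1, and the other 10 lie below it, down to 0.356 for Cacng2 94182_at.

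Across the members, 1 of the 14 tested probe sets passed the test in any comparison, and it belonged to Cacng4. Between P14 and P60 limma called 1 of 14 at an adjusted p under 0.05 (Benjamini-Hochberg over all tested probe sets), where 0.396% of all 20724 tested probe sets were called, 0.290% of them as lower at P60. Between P14 and P28, and between P28 and P60, 0 of the 14 passed, against 0.00483% and 0% of all. At an unadjusted p under 0.05 there were 2, 2 and 6 of 14 from P14 to P28, from P28 to P60 and from P14 to P60, against 7.87%, 5.43% and 15.7% of all. By sign alone, 12 of the 14 were lower at P28 than at P14 and 9 were lower at P60 than at P14, where 47.1% and 45.2% of all tested probe sets were. The median log2 change over the 14 was -0.35 from P14 to P28 and -0.29 from P14 to P60, beside 0.03 and 0.06 over all tested probe sets. On 6 of the 14 every P28 litter lay below every P14 litter, where 8.41% of all tested probe sets did so. With array weights, which give discrepant arrays less say, limma called 4 of 14 from P14 to P28 (5.61% of all) and 7 from P14 to P60 (17.5% of all). These probe sets share genes and litters, and the comparisons share litters, so the counts are a description.

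**Figure D2:**
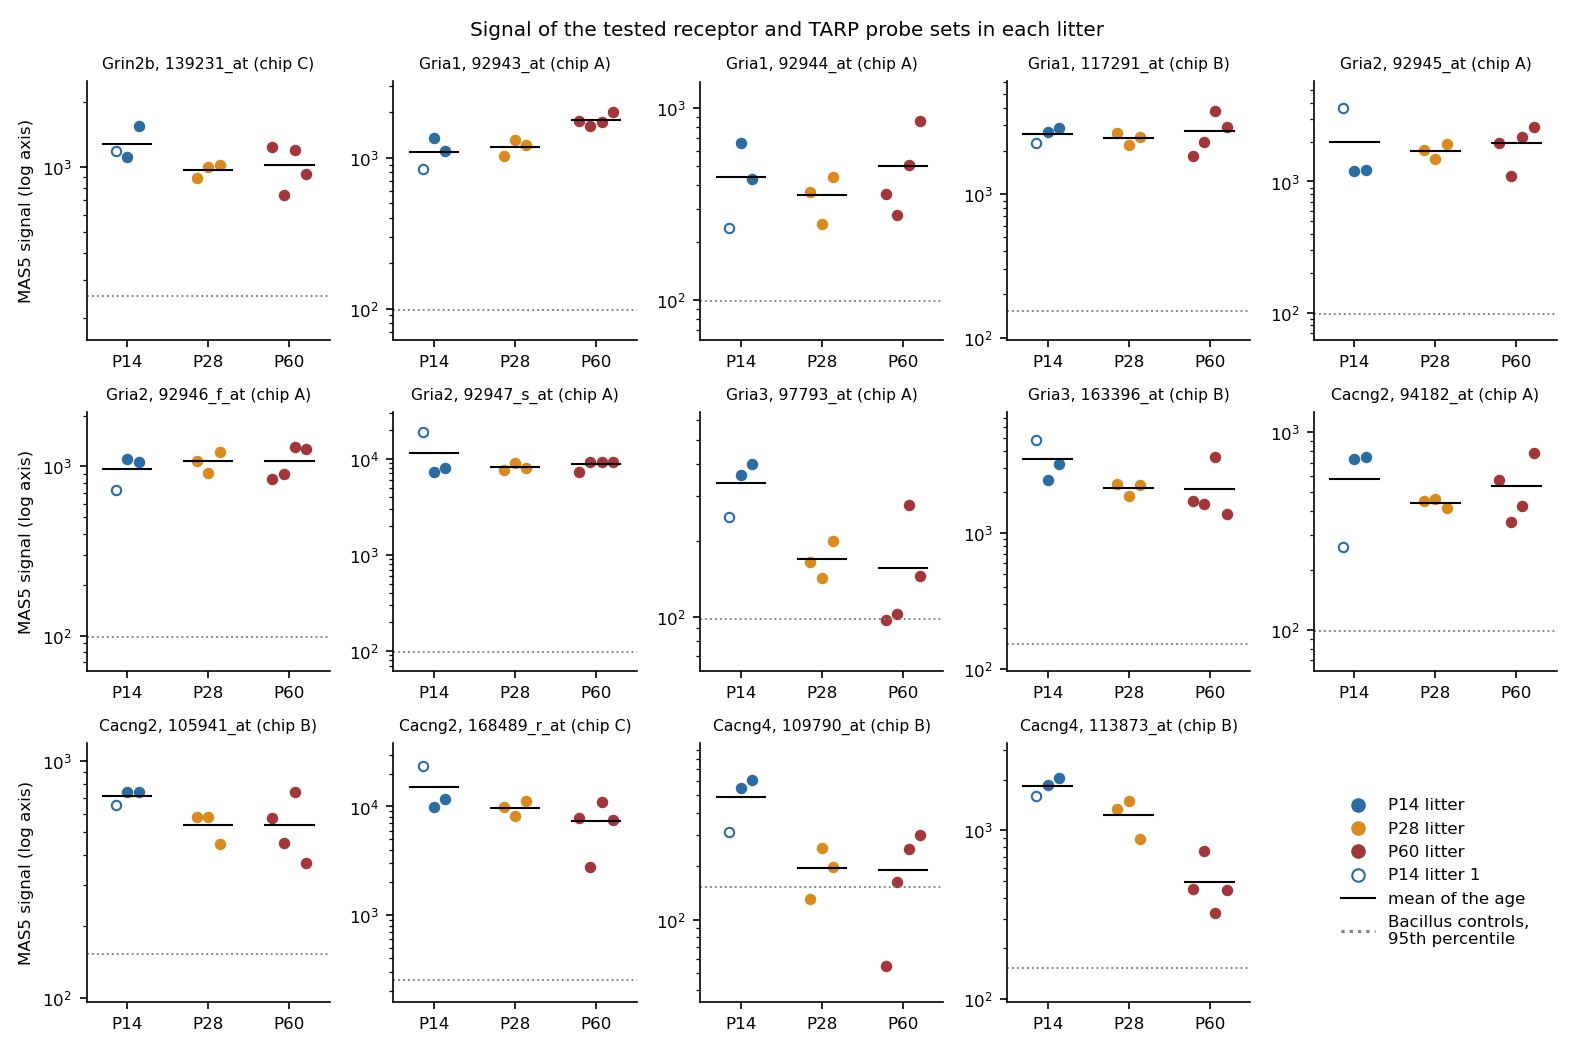
MAS5 signal (log axis) of the 14 tested probe sets in each of the 10 litters, by age; bars are age means, the open circle is P14 litter 1, and the dotted line is the 95th percentile of the Bacillus controls on that chip. Cacng4 113873_at steps down at each age, from 1603 to 2046 at P14 to 325 to 753 at P60, while most other panels overlap between ages.

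Cacng4 fell. It encodes TARP gamma-4, an AMPA receptor partner known for its expression in the immature brain. On probe set 113873_at (chip B) the P14 litters read 1603, 1861 and 2046, the P28 litters 1335, 1492 and 895, and the P60 litters 448, 753, 325 and 444. The 3 ages did not overlap: every P28 litter lay below every P14 litter, and every P60 litter below every P28 litter. Litters failed to overlap in the lower direction in 8.41% of all tested probe sets from P14 to P28, in 4.46% from P28 to P60 and in 6.42% from P14 to P60. The means were 1837 ± 223 (SD, n = 3), 1241 ± 310 (SD, n = 3) and 493 ± 183 (SD, n = 4).

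From P14 to P60 the log2 change of Cacng4 on this probe set was -1.83 with a standard error of 0.260 (95% confidence interval -2.40 to -1.26, limma, adjusted p = 0.0143). It was also called by the test of all 3 ages together (limma F test, adjusted p = 0.0368), which called 0.111% of tested probe sets. That call held without P14 litter 1 (0.0249) or P60 litter 2 (0.0421), fits that called 130 and 6 of all 20724 tested probe sets. It was lost without any 1 of the other 8 litters. There limma's adjusted p ran from 0.0597 (P28 litter 3) to 0.160 (P60 litter 4). Those 8 fits called 0 to 32 of all tested probe sets. The larger step was the later one, at -1.26 (interval -1.83 to -0.70) from P28 to P60 against -0.57 (-1.17 to 0.04) from P14 to P28, and neither passed alone (limma, adjusted p = 0.894 and 0.663). The difference between the steps was not tested. Leaving out P14 litter 1 or the doubted P60 arrays as well kept the P14 to P60 call (limma, adjusted p = 0.0111 and 0.0228). The call was lost without P14 litter 2 (0.0649), P14 litter 3 (0.0596), P60 litter 1 (0.0561) or P60 litter 4 (0.0663), with only the P14 and P60 litters in the fit (0.0714), and with the litter number as a replicate block (0.108). In those 6 fits the log2 change stayed between -1.83 and -1.75. The last 2, and the fit without P14 litter 2, called 0 of all 20724 tested probe sets, and the other 3 called 8 to 28. Over all 19 alternatives it lay between -2.04 and -1.51, and the adjusted p ran from 0.000134 to 0.108.

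The other Cacng4 probe set, 109790_at, was dimmer and pointed the same way without passing. Its P14 litters read 312, 548 and 612, its P28 litters 131, 254 and 197, and its P60 litters 54.7, 164, 249 and 297. Both later ages lay wholly below P14 but overlapped each other, and 2 of the 10 arrays were under the Bacillus level. The log2 change was -1.11 (standard error 0.426) from P14 to P28 and -1.22 (0.399) from P14 to P60 (limma, adjusted p = 0.542 and 0.180). It was -0.11 from P28 to P60 (0.983), and near the Bacillus level a further step down from P28 could not be read on this probe set.

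Markers of oligodendrocyte progenitors, another cell type of the tissue, mostly had lower means at P60 than at P28. Of 7 listed, 4 were measured and none was called. The log2 change of all 4 was below 0, but that of Sox10 was only -0.01, with means of 870 and 888. Their median log2 change was -0.49, beside -0.02 over all genes tested. From P14 to P28 their median was -0.0084, with 2 of 4 higher. Without P14 litter 1 it was -0.20, with 3 of 4 lower, and from P14 to P60 it was -0.77, with 0 called in either. Their summed signal ran from 5866 to 12386 at P14, from 7040 to 11154 at P28 and from 4852 to 7771 at P60. The lowest P14 sum, 5866, was that of P14 litter 1. Between P14 and P60 the receptor gene Gpr17 stood at -0.80, the transcription factor gene Olig1 at -0.66, the receptor kinase gene Pdgfra at -0.37 and the transcription factor gene Sox10 at 0.32 (limma, adjusted p = 0.156, 0.373, 0.403 and 0.544). Their part in the Cacng4 result was not tested. Excitatory neuron markers had a median log2 change of -0.04 from P14 to P60, with 0 of 7 measured called. Without P14 litter 1 their median was -0.15, with single markers from -1.75 to 1.02. In that fit 1 of the 7 was called, as higher, where 2.40% of all tested probe sets were called.

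Over the 10 litters, the gene whose log2 signal on chip B was most like that of Cacng4 113873_at was Tmem128 (Pearson r = 0.975). It was followed by Bbip1 (0.934), Zdhhc13 (0.925), Gm17750 (0.921) and Spats2l (0.915), out of 6346 tested probe sets with 1 symbol. They were chosen for following Cacng4, so means that step down with age follow from the choice. For Bbip1 these went from 1784 through 1231 to 763. These values come from the same arrays, so shared litter and array effects enter each correlation.

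Cacng2 encodes TARP gamma-2, known as stargazin, the first of these proteins to be recognised. Its 3 tested probe sets were all lower at P60 than at P14 by sign, by very different amounts, and none passed. On 105941_at, the one least moved by P14 litter 1, the P14 litters read 654, 739 and 741, the P28 litters 579, 582 and 447, and the P60 litters 576, 449, 742 and 372. The P28 litters lay below the P14 litters, whereas the P60 litters spanned both. The log2 change from P14 to P60 was -0.41 (95% confidence interval -0.90 to 0.08, limma, adjusted p = 0.386).

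On the brightest Cacng2 probe set, 168489_r_at, the P14 litters read 23721, 9970 and 11628, the P28 litters 9802, 8131 and 11260, and the P60 litters 7755, 2753, 11050 and 7560. Its P14 to P60 change of -1.10 (-2.0 to -0.21, adjusted p = 0.233) came with P14 litter 1 as the highest value and P60 litter 2 as the lowest, and the chip C array of the latter had the lowest mean correlation with the others. On 94182_at the change was -0.04 (-0.80 to 0.71, adjusted p = 0.961) with all litters. It became -0.87 and passed (limma, adjusted p = 0.0387) once P14 litter 1 and P60 litters 1 and 4 were left out, a set that earlier work on these data had chosen and in which 2.13% of all tested probe sets were called. That comparison holds P14 litters at 730 and 744 against P60 litters at 352 and 423.

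Gria1 encodes the GluA1 subunit, which is delivered to synapses during potentiation. On its main probe set, 92943_at (chip A), the P14 litters read 836, 1349 and 1112, the P28 litters 1026, 1311 and 1206, and the P60 litters 1764, 1631, 1723 and 2001. Every P60 litter was above every P14 and P28 litter, which was so for 6.61% of all tested probe sets against P14 and 3.90% against P28. The means were 1099 ± 257 (SD, n = 3), 1181 ± 144 (SD, n = 3) and 1780 ± 158 (SD, n = 4). The log2 difference of P60 from P14 was 0.70 with a standard error of 0.201 (95% confidence interval 0.26 to 1.14), and it did not pass (limma, adjusted p = 0.139). From P28 to P60 it was 0.58 (0.14 to 1.02, adjusted p = 0.894). P14 litter 1 was the lowest of all litters, and without it the P14 to P60 difference was 0.52 and was not called. Over all 19 alternatives that difference lay between 0.44 and 0.85, and 1 of them called it.

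The other Gria1 probe sets did not show this. On 117291_at (chip B) the P60 litters read 1845, 2306, 3794 and 2949, on both sides of the P14 litters at 2277, 2715 and 2872. Its change was 0.01 (-0.50 to 0.52, limma, adjusted p = 0.985). On 92944_at it was 0.15 (-0.68 to 0.99, adjusted p = 0.868). The difference between probe sets was not tested. Markers of the hippocampal formation, which lies below V1 and is rich in Gria1, were higher at P60 in their means. Of 6 listed, 4 were measured, all 4 were higher than at P14, with a median log2 change of 0.56, and none was called. Fibcd1 among them exceeded the Bacillus level on 6 of 10 arrays. All 4 were also higher at P28 than at P14, with a median of 0.44. Their summed signal ran from 1188 to 1790 at P14, from 1551 to 2452 at P28 and from 1761 to 2608 at P60. Its part in the Gria1 values was not tested.

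Gria2 encodes GluA2, the subunit that sets calcium permeability. Apart from P14 litter 1 its main probe set 92947_s_at was steady: P14 litters 2 and 3 read 7290 and 7992, the P28 litters 7665, 8960 and 7978, and the P60 litters 7231, 9178, 9213 and 9139. With all litters the log2 difference of P60 from P14 was -0.25 (95% confidence interval -0.90 to 0.39, limma, adjusted p = 0.702), and without P14 litter 1 it turned to 0.18 (adjusted p = 0.571). On 92946_f_at it was 0.15 (-0.35 to 0.65) and on 92945_at 0.10 (-0.74 to 0.93), neither called. Probe sets with the suffix f, s or r may also detect related transcripts. A further probe set, 162076_r_at, read at most 14.5 on any array and was not tested.

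Gria3 encodes GluA3, whose receptors with GluA2 are made and replaced constantly. Both of its probe sets were lower at P28 and P60 than at P14, and neither passed. On 97793_at the P14 litters read 249, 363 and 401, the P28 litters 165, 142 and 199, and the P60 litters 97.5, 103, 277 and 145. On 163396_at they read 4779, 2431 and 3172, then 2280, 1872 and 2237, and at P60 1699, 1627, 3617 and 1370. On both, all P28 litters lay below all P14 litters, and P60 litter 3 alone reached into the P14 range. The P14 to P28 changes were -0.84 (-1.61 to -0.08) and -0.64 (-1.37 to 0.10), with limma adjusted p of 0.594 and 0.687. The P14 to P60 changes were -1.02 (-1.73 to -0.30) and -0.77 (-1.46 to -0.08), with 0.176 and 0.271.

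**Figure D3:**
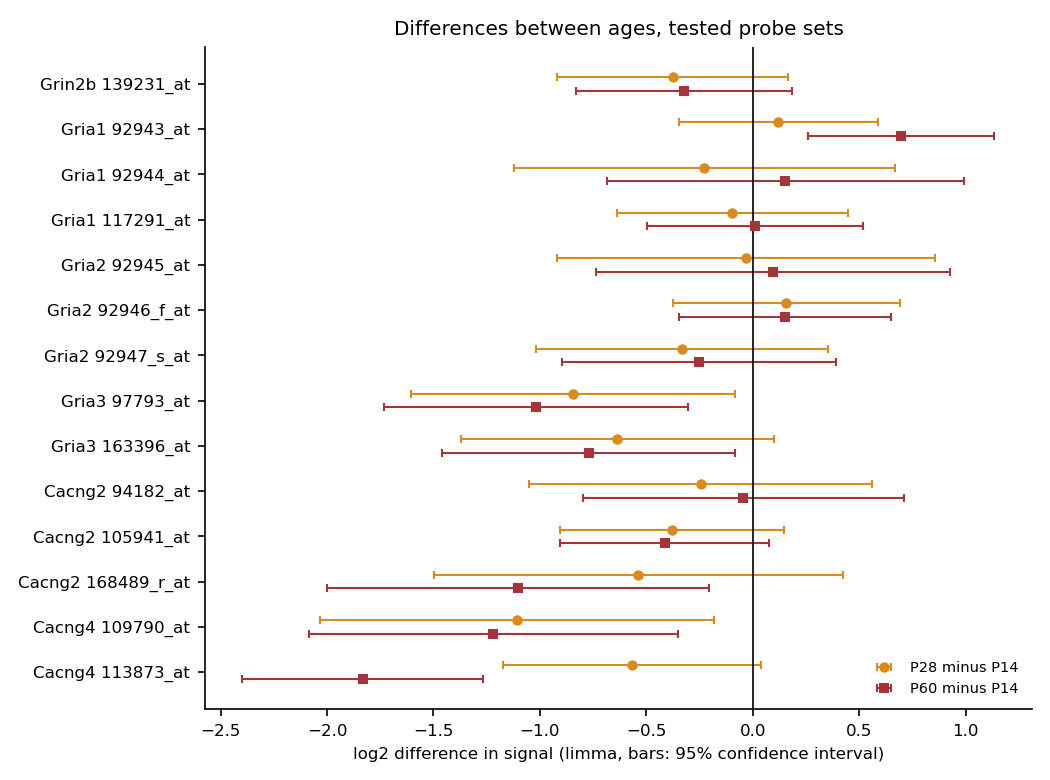
Log2 difference in signal of P28 from P14 (circles) and of P60 from P14 (squares) for the 14 tested probe sets, with 95% confidence intervals from limma on all litters. The P60 square of Cacng4 113873_at lies at -1.83 and that of Gria1 92943_at at 0.70; the intervals are not adjusted for the number of probe sets, and only the first of these passed after adjustment.

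Gria4 encodes GluA4, the subunit of fast-spiking interneurons and of early cortex. Its single probe set, 101710_at, read from 5.99 to 131 over the litters and exceeded the Bacillus level of 98.4 on 1 of 10 arrays, so no age difference could be read for it.

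Of the 3 probe sets for Grin2a and Grin2b, 1 was well above background. Grin2b 139231_at (chip C) read 1187, 1105 and 1550 in the P14 litters, 883, 999 and 1022 at P28, and 1231, 743, 1199 and 927 at P60. All P28 litters lay below all P14 litters, and the P60 litters overlapped both. The log2 change was -0.38 from P14 to P28 (95% confidence interval -0.92 to 0.17, limma, adjusted p = 0.769) and -0.32 from P14 to P60 (-0.83 to 0.19, adjusted p = 0.519). It was below 0 from P14 to P60 under each of the 19 alternatives run, between -0.42 and -0.18, and never passed. The genes most like it on chip C were Letm1 (Pearson r = 0.914), Snrnp48 (0.896), Zfp217 (0.882), Rcbtb2 (0.876) and Nat14 (0.868), over 10 litters and 4729 probe sets.

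The other Grin2b probe set, 101312_at (chip A), and the only one for Grin2a, 100726_at (chip A), were never above the chip median and were not tested. Grin2a read 96.0, 84.1 and 105 at P14, 31.9, 73.6 and 78.8 at P28, and 112, 69.0, 43.3 and 168 at P60. It exceeded the Bacillus level on 3 of 10 arrays, at P14 on 1 and at P60 on 2. Grin2b 101312_at exceeded it on 7 of 10, ranging from 31.9 to 201.

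The balance of Grin2b to Grin2a, the measure of the receptor's known subunit change, was taken in each litter as the log2 ratio of Grin2b 139231_at to Grin2a 100726_at, each with its constant added. Its level has no meaning across probe sets, and the Grin2a term lies near background. It was 3.19, 3.23 and 3.48 in the P14 litters, 3.72, 3.22 and 3.18 at P28, and 3.08, 2.87, 3.92 and 2.24 at P60. The P60 litters spread below and above the other ages, with a mean of 3.03 ± 0.697 (SD, n = 4) beside 3.30 ± 0.154 (SD, n = 3) at P14 and 3.37 ± 0.299 (SD, n = 3) at P28. The difference of P60 from P14 was -0.27 (two-sided exact permutation test, p = 0.571) and that of P28 from P14 was 0.07 (exact p = 0.900). Over all 4200 assignments of the litters to the ages, an exact permutation test of the 3 ages gave p = 0.656. The smallest p possible was 0.1 for 3 against 3 litters and 0.0286 for 3 against 4. With Grin2b 101312_at, on the same chip as Grin2a, the P60 difference was 0.08 (exact p = 0.914). Without P60 litter 3 the test of the 3 ages gave p = 0.0464, on a Grin2a value near background. A change of this balance was not detectable with these probe sets.

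**Figure D4:**
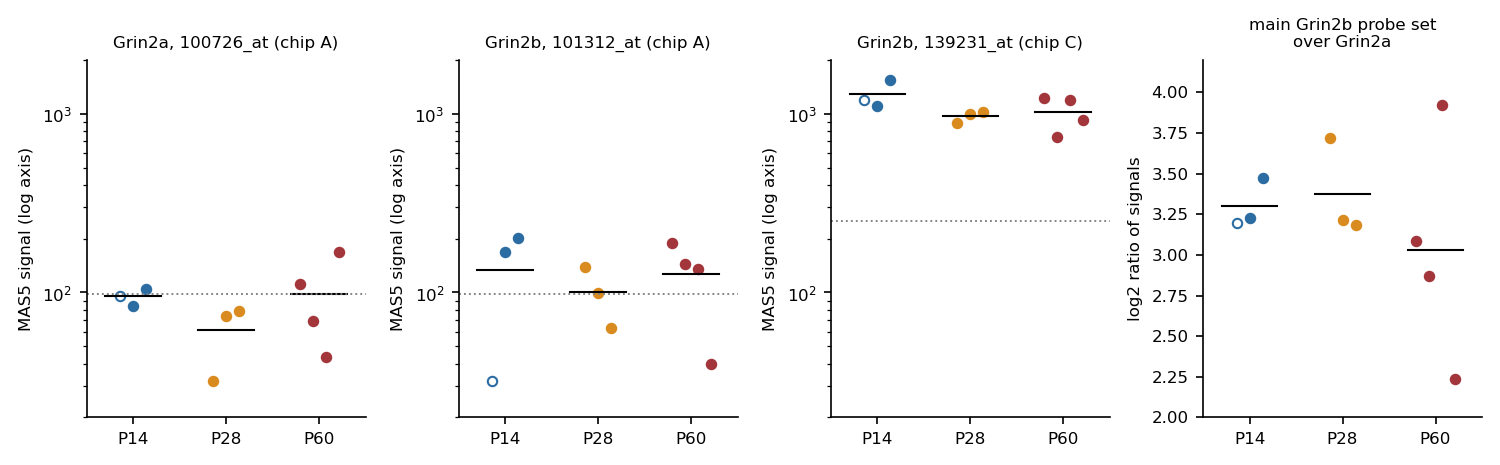
MAS5 signal (log axis) of the Grin2a probe set and both Grin2b probe sets by age, and the log2 ratio of Grin2b 139231_at to Grin2a 100726_at; points are litters, bars are means, the open circle is P14 litter 1 and dotted lines are the Bacillus level. Grin2a exceeds that level on 3 of 10 arrays, and the ratio at P60 spans 2.24 to 3.92, wider than at P14 (3.19 to 3.48).

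Other glutamate receptor genes and partners were taken from 5 lists. None of their 67 measured genes passed in any comparison with all litters. Of all 11240 genes tested, 17 were called as higher and 38 as lower at P60 than at P14. From P14 to P28 only 1 gene was called, and from P28 to P60 0 were. Of 11 other ionotropic subunits 7 were measured, with a median log2 change from P14 to P60 of 0.39, which turned to -0.13 without P14 litter 1. Over all genes tested the median was 0.05. The NMDA subunit gene Grin2d stood at 0.94 (limma, adjusted p = 0.237), from a P14 mean of 112, while its brighter probe set stood at -0.11. Grin3a, whose subunit lowers calcium entry and is typical of young neurons, went from 4789 ± 1215 (SD, n = 3) to 2972 ± 577 (SD, n = 4). That is -0.67 (adjusted p = 0.188), with all P60 litters below all P14 litters. For Grin3a P14 litter 1 read 6178, and the other P14 litters read 4264 and 3924. The kainate receptor gene Grik5 stood at 0.67 (0.633) on its main probe set, and at 1.52 (0.149) and 1.36 (0.134) on the other 2. On the main probe set P14 litter 1 read 150, against 1632 and 1792 in the other P14 litters and a P60 mean of 1366.

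Of 22 auxiliary proteins of AMPA and kainate receptors 17 were measured, with a median of 0.18 (0.02 without P14 litter 1). Neto1 and Neto2, partners of kainate receptors, stood at -0.96 (limma, adjusted p = 0.112) and -0.68 (0.134), and every P60 litter lay below every P14 litter for both. Neto1 had means of 3264 ± 807 (SD, n = 3), 1464 ± 288 (SD, n = 3) and 1668 ± 453 (SD, n = 4). Its P14 litter 1 read 4175, and the other P14 litters read 2982 and 2635. Nptx2, a secreted pentraxin that clusters AMPA receptors, stood at 0.75 (0.188) with no overlap. Its P14 litter 1 read 345, and the other P14 litters read 713 and 702.

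Scaffold and trafficking genes had 27 of 30 measured and a median of -0.07 (-0.19 without P14 litter 1). The largest were those of Grip1, which binds the tail of GluA2 and GluA3, at -1.22 (limma, adjusted p = 0.175), Shank2 at -0.90 (0.248) and Lin7a at -0.76 (0.220). The P60 mean of Grip1, 152, was just under the Bacillus level. Of 8 metabotropic receptors 4 were measured, with a median of -0.14, and Grm7 stood at -0.45 (0.551), Grm3 at -0.19 (0.811) and Grm5 at -0.09 (0.917).

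Kinases, phosphatases and suppliers of co-agonist had 12 of 13 measured and a median of 0.07. Fyn, a kinase that phosphorylates Grin2 subunits, came nearest to the threshold: it went from 1595 ± 98.5 (SD, n = 3) at P14 through 1245 ± 57.9 (SD, n = 3) to 874 ± 174 (SD, n = 4), a log2 change of -0.86 (limma, adjusted p = 0.0808). Src stood at -0.98 (0.387), with 0.24 on its other probe set. On the first, P14 litter 1 read 105, against 395 and 540 in the other P14 litters. The transporter gene Slc7a10 stood at 0.87 (0.487), with P14 and P28 means under the Bacillus level. Without P14 litter 1, where 2.40% of all tested probe sets passed between P14 and P60, 4 of the 67 did. Fyn (-0.90, adjusted p = 0.0316), Lin7b (-1.0, 0.0194) and Lrrtm1 (-0.84, 0.0328) fell, and Ptk2b, a calcium-activated kinase, rose (1.36, 0.0175).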

How the data were processed

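The deposited values are MAS5 signal intensities, 1 per probe set and array, per the submitters' processing notes, which name no version. The authors had scaled the arrays: the 2% trimmed mean of each is between 500.1 and 500.4. Symbols came from the supplied array annotation, updated through gene IDs (99.5% to 99.9% of symbols matched).

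Here log2(signal + constant) was analysed, the constant being the 20th percentile of the chip type (38.6, 57.8 and 44.0 on chips A, B and C). Each chip type was fitted with limma 3.58.1 in R 4.3.3 (lmFit, eBayes with a variance trend) on all 10 litters with age as the only term. P-values of all 3 chip types were adjusted jointly (Benjamini-Hochberg) and called under 0.05. The fit was tested on simulated data. The number of arrays limits the precision. A gene's main probe set is a tested one on chip A if there is one, otherwise on B or C, the brightest within a chip. All member probe sets are reported, and from each list the genes past the threshold and the 3 with the largest P14 to P60 change by size. Lrrtm1, Lin7b and Ptk2b were named for passing without P14 litter 1. By the rule Grin2a had no main probe set, so its only one was used for the balance.

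The members and lists were chosen with earlier results of these data known. No sequence is printed, and no genome build was needed.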

Additional observations from a re-analysis of the deposited data

Results flagged for a closer look

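For Gria2 on 92947_s_at, 1 of the 4 P60 litters stood away from the rest: litter 1 read 7231 and the other P60 litters lay between 9139 and 9213. The gap on the log2 scale was 0.967 of the group's whole range, above Dixon's 95% critical value for 4 samples. Of 15 P60 groups looked at, 14 probe sets and the Grin2b to Grin2a balance, this was the 1 that stood out, and chance gives about 1 in 20. P14 and P28 hold 3 litters each and were not looked at in this way.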

How the results depend on the processing

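The number of litters limits the precision of every value, and probe sets near the Bacillus level carry no readable age difference. Of the comparisons of single probe sets under alternatives, 529 kept direction and side of the threshold, 38 changed sign, 11 passed only under the alternative and 6 lost the call; all 6 are Cacng4 113873_at from P14 to P60, including the replicate block (-1.80, limma adjusted p = 0.108). With array weights, which down-weight discrepant arrays, 4 member probe sets were called from P14 to P28 (5.61% of all) and 7 from P14 to P60 (17.5% of all). With these weights the F test of the 3 ages called 5, and 3024 of all 20724 tested probe sets. The restricted set, without P14 litter 1 and the arrays of lowest correlation, called 2 from P14 to P60 (2.13% of all). The replicate block and the fit of only the 2 ages called 0 there, and 0 of all tested probe sets. The F test called 0 members with the replicate block, which called 0 of all, or with no filter, which called 17 of 36701. Leaving out 1 litter in turn gave 0 to 1 both from P14 to P60 and by the F test. Those fits called 0 to 497 and 0 to 130 of all 20724 tested probe sets. Litter numbers did not pair the samples: deviations of same-numbered litters correlated between -0.0760 and 0.158, and 4 of 27 pairs exceeded 0.1. The balance of Grin2b to Grin2a with the number as a replicate block differed by -0.0055 from P14 to P60.

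Changes of sign all concern differences that were not called, and their cause was not tested. From P14 to P28, array weights gave -0.038 for Gria1 92943_at, 0.48 for Gria2 92945_at and 0.0675 for Gria2 92947_s_at. The restricted set gave -0.0579, 0.49 and 0.0998 for these and -0.027 for Gria2 92946_f_at. Leaving out 1 litter gave -0.0579 to 0.27 for Gria1 92943_at, -0.58 to 0.0914 for Gria1 92944_at, -0.30 to 0.49 for Gria2 92945_at, -0.027 to 0.26 for 92946_f_at and -0.58 to 0.10 for 92947_s_at. From P14 to P60, the replicate block gave -0.13 for Gria1 92944_at, -0.0432 for Gria1 117291_at and -0.0597 for Gria2 92945_at. Array weights gave -0.21 for Gria1 117291_at and 0.15 for Gria2 92947_s_at, and the restricted set -0.46 for Gria1 92944_at, -0.0023 for Gria2 92946_f_at and 0.27 for Gria2 92947_s_at. Leaving out 1 litter gave -0.20 to 0.47 for Gria1 92944_at, -0.16 to 0.18 for 117291_at, -0.17 to 0.61 for Gria2 92945_at, -0.0344 to 0.26 for 92946_f_at, -0.50 to 0.18 for 92947_s_at and -0.50 to 0.19 for Cacng2 94182_at. From P28 to P60, Cacng4 109790_at stood at 0.0799 in the restricted set and between -0.32 and 0.23 without 1 litter. Probe sets outside the count for that comparison changed sign too. Over the alternatives Cacng2 94182_at ran from -0.17 to 0.36, Gria3 163396_at from -0.43 to 0.19 and Grin2b 139231_at from -0.04 to 0.19.

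The balance from P14 to P28 was -0.16 with the chip median as constant and -0.10 to 0.17 without 1 litter. In the restricted set P60 holds 1 litter, litter 3, whose balance is the highest of all: the values there, 0.55 from P28 to P60 and 0.57 from P14 to P60, set that litter against the others and have no replicate check. It was 0.0803 from P14 to P60 with the other Grin2b probe set. The exact permutation p of the 3 ages ran from 0.0464 (without P60 litter 3) to 0.954 without 1 litter. The mean over tested probe sets was not run for the balance, since Grin2a has none.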

Other observations

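The remaining TARP genes and the cornichons, other AMPA receptor partners, were looked at after their values were seen. From P14 to P60 Cacng8, the TARP gene known for hippocampal and cortical AMPA receptors, had a log2 change of 0.19 (limma, adjusted p = 0.725), with means of 541 ± 44.2 (SD, n = 3) and 623 ± 61.8 (SD, n = 4). Cacng5 stood at 0.23 (0.681), and the cornichon genes Cnih1, Cnih2 and Cnih3 at -0.37 (0.544), 0.20 (0.783) and 0.26 (0.609). None was called, and none was compared with Cacng4 by a test. For Cnih1, Cnih2 and Cnih3, P14 litter 1 read 2183, 839 and 357. The other P14 litters read 1232 and 999, 2120 and 2300, and 760 and 794, beside P60 means of 1100, 1881 and 737. The gene of the postsynaptic scaffold PSD-95, Dlg4, stood at -0.03 (0.979) with P14 litter 1 included. Its P14 litters read 637 (litter 1), 2126 and 3243, and its P60 litters 2106, 2068, 1098 and 1410.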
